A study of Mus musculus with 9 samples.

Results

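Microglia are the resident macrophages of the brain and spinal cord, and the 10 genes described here encode receptors, adaptors and surface proteins by which they sense neurons, damage and antibodies. They are Cx3cr1, P2ry12, Fcgr3, Cd53, Csf1r, Tyrobp, Fcer1g, Trem2, Itgam and Grn. They were chosen by name, and each entered through every probe set that the platform annotation gave to that gene alone. This gave 16 probe sets for 10 genes, of 22626 probe sets and 12393 named genes on the array.

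Expression was measured on 9 arrays, 1 per mouse, in lumbar motor neurons cut by laser from 13-day-old animals. The groups were 3 SMA mice transplanted at postnatal day 1 with cells that the labels call NSC, which this field uses for neural stem cells, 3 SMA mice given vehicle, and 3 wild-type mice given vehicle. All 3 groups had the surgery at postnatal day 1, and the SMA animals are called transgenic without their alleles being named. Spinal muscular atrophy (SMA) is a disease of motor neurons caused by a shortage of the SMN protein. About 100 cells were collected per cap and the cells of an array came from 1 animal. The comparisons ask what the transplant and the disease genotype changed in the captured material.

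In the healthy cord, microglia depend on signals through the receptor Csf1r, watch neurons through Cx3cr1 and follow released nucleotides through P2ry12. Fcgr3, which binds the constant part of antibodies, and Trem2, which binds lipids and lipoproteins, have no signalling motif of their own and pass their signal to the adaptor chains Fcer1g and Tyrobp. Itgam is the alpha chain of complement receptor 3, Cd53 is a tetraspanin of white blood cells, and Grn encodes progranulin, a secreted and lysosomal protein that neurons make too. Fcgr3, Cd53, Tyrobp, Fcer1g and Itgam are also made by neutrophils and monocytes.

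The values are MAS5 signals, linear intensities per probe set in arbitrary units that the authors scaled to one level per array. Array medians lay between 31.4 and 35.8, and signals of different probe sets are not amounts that can be set against each other. The arrays read glial as well as neuronal RNA. Of the motor neuron list, 6 of 11 genes on the array were among the brighter 50% of all probe sets, the neurofilament gene Nefl (871 ± 272, SD, n = 9) and the motor neuron factor Isl2 (59.5 ± 28.2) among them. The vesicular acetylcholine transporter Slc18a3 (13.4 ± 11.9) and Isl1 (8.83 ± 3.82) were not, and a dim probe set does not show that the RNA was absent. Microglia were not the cells aimed at, and in such material fewer microglia and less RNA per microglial cell cannot be told apart. SMA 1 and SMA 2 stood apart by muscle transcripts, with skeletal actin Acta1 at 1288.7 and 1413.7 against 1.5 to 27.1 on the other arrays. SMA 2 also stood apart by transcripts of neutrophil granules, as given below.

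Promoters of 4 member genes are shown because the members varied together across arrays, as described below, and because the transcription factor Spi1 (PU.1), which macrophages need, binds sites built around the letters GAGGAA. The first 3 had the most negative differences between transplanted SMA and SMA by the fitted values, and Grn had the smallest. Each is the 250 bases before the RefSeq start of the gene in build GRCm38.p6, read 5′ to 3′ on the strand of the gene, with GAGGAA or its reverse complement TTCCTC in capitals. Cx3cr1 lies at chr9:120068297-120068546 (minus strand), Fcgr3 at chr1:171059404-171059653 (minus), Cd53 at chr3:106790150-106790399 (minus) and Grn at chr11:102430257-102430506 (plus).
Cx3cr1: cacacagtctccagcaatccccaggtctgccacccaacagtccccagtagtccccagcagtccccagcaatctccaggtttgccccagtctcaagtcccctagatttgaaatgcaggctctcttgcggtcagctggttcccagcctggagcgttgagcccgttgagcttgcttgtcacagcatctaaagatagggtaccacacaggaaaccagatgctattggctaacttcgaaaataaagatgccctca
Fcgr3: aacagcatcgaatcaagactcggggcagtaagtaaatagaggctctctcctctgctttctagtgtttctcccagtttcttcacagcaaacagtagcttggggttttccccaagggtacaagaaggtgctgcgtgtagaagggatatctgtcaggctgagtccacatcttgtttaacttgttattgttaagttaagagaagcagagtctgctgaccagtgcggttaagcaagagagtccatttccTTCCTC
Cd53: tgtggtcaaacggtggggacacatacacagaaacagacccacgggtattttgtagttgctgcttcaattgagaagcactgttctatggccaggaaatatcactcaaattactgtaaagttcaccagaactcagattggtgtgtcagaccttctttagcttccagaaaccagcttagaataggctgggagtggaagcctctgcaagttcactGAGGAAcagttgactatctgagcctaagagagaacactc
Grn: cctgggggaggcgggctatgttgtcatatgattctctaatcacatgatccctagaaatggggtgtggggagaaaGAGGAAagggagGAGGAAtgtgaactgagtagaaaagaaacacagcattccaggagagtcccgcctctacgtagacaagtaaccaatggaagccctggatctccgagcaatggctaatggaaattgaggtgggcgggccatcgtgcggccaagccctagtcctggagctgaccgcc

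The window of Cx3cr1 holds no match. That of Fcgr3 holds 1 on the reverse strand, starting 6 bases before the start, and that of Cd53 holds 1 on the forward strand, 39 bases before it. Grn has 2 forward matches, 176 and 164 bases before the start. Of the 10 members, 8 had a window in the member search (Tyrobp and Csf1r did not), and 5 of these held the letters on either strand. That search left out windows on 1 chromosome, which the count over all genes kept. A member without a window in that search may still have one in the RefSeq table. Among all 27025 genes with a window, 25.9% held them in 250 bases. A match says only that these letters occur.

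Of the 16 probe sets, 13 from 9 genes were bright enough to be tested. The filter kept the brighter 50% of all probe sets by their mean over the 9 arrays. Itgam, with 1 probe set, and the dimmer probe sets of Cx3cr1 and Trem2 were not tested. Where they are described below, their values come from a fit without the filter. Differences are on the log2(signal + 16) scale, which understates the change of dim genes. A result passed when its limma p-value, adjusted by Benjamini-Hochberg over all 11313 tested probe sets, was under 0.05.

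In transplanted SMA against SMA, every tested member probe set had a negative difference and none passed the test. The 13 differences ranged from -1.13 to -0.44 with a median of -0.82, while the median over all tested probe sets was 0 and 49.7% of them were negative. The smallest adjusted p was 0.933, and 0 of 11313 probe sets passed in this comparison (0% called). At an unadjusted p under 0.05, 6 of the 13 were lower, against 2.46% of all tested probe sets. Groups did not overlap, with transplanted SMA lower, for 5 of the 13, against 4.68% of all.

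Cx3cr1, the receptor for the neuronal chemokine fractalkine, read 450.5, 387.2 and 807.3 in transplanted SMA, against 1348.3, 1043.5 and 1103.5 in SMA and 613.7, 1271.2 and 1464.9 in wild type. All 3 transplanted animals lay below all 3 SMA animals, and wild type 1 lay within the range of the transplanted ones. The transplanted SMA minus SMA difference was -1.13 (SE 0.33, 95% interval -1.86 to -0.39, unadjusted p = 0.00619, adjusted p = 0.933). This was rank 45 of 11313 by p-value. The dim second probe set of Cx3cr1 read 6, 23.5 and 13.8 in transplanted SMA, against 26.2, 27.6 and 25.9 in SMA and 19.6, 33.7 and 32.3 in wild type. It gave -0.52 (SE 0.24) in the fit without a filter.

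P2ry12, a receptor for ADP that steers microglial processes to injured cells, read 219.8, 264.2 and 735.7 in transplanted SMA, against 459.8, 545.1 and 848 in SMA and 500.4, 841.7 and 827.7 in wild type. Transplanted SMA 3 lay within the range of the SMA animals, and the other transplanted arrays lay below it. The difference from SMA was -0.74 (SE 0.40, interval -1.63 to 0.15, adjusted p = 0.933).

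Fcgr3, an activating receptor for immunoglobulin G, read 67.4, 86.9 and 164.8 in transplanted SMA, against 212.1, 304.5 and 186.4 in SMA and 74.9, 150.8 and 212.1 in wild type. Transplanted SMA and SMA did not overlap, and both overlapped wild type. The difference from SMA was -1.08 (SE 0.36, interval -1.88 to -0.29, adjusted p = 0.933). The highest reading was on SMA 2.

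Cd53 showed the same separation, with 72.5, 70.5 and 153.8 in transplanted SMA, against 167.1, 290.5 and 184.3 in SMA and 105.7, 217.7 and 246.9 in wild type. Its difference from SMA was -1.04 (SE 0.35, interval -1.80 to -0.27, adjusted p = 0.933), and SMA 2 was again the highest array.

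Csf1r, the receptor for colony stimulating factor 1 and interleukin 34, had 3 probe sets. The brightest read 3226.6, 2933.4 and 5066.9 in transplanted SMA, against 5772.4, 4222.2 and 5634.6 in SMA and 3502.3, 4585 and 6025 in wild type. Transplanted SMA 3 exceeded SMA 2, so the groups overlapped. Differences from SMA were -0.50 (SE 0.24), -0.86 (SE 0.36) and -0.71 (SE 0.33) at the 3 probe sets.

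Tyrobp, the adaptor also called DAP12, read 199.7, 193.2 and 384.5 in transplanted SMA, against 480.5, 581.9 and 413 in SMA and 234.6, 414.6 and 687.7 in wild type. Its transplanted SMA and SMA arrays did not overlap, and the difference was -0.94 (SE 0.36, interval -1.73 to -0.15, adjusted p = 0.933). Fcer1g, the shared gamma chain of Fc receptors, read 28.6, 15.7 and 77.2 in transplanted SMA, against 57.2, 126.8 and 88.3 in SMA and 41.8, 68.5 and 129 in wild type. Transplanted SMA 3 lay above SMA 1, so these groups overlapped, with a difference of -1.02 (SE 0.42, interval -1.95 to -0.08).

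Trem2 was read by 2 probe sets that did not follow each other (Pearson r = 0.17 over 9 arrays). The tested one read 17.3, 13.3 and 74.8 in transplanted SMA, against 88.1, 50.9 and 54.2 in SMA and 32, 39.9 and 70.3 in wild type. Transplanted SMA 3 was above 2 of the SMA arrays, and the difference was -0.82 (SE 0.40, interval -1.69 to 0.05). The dim one read 3.5 to 22.4 over all arrays and gave -0.24 (SE 0.25).

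Itgam, the alpha chain of complement receptor 3, was dim. Its signals were 20.9, 8 and 74.5 in transplanted SMA, against 14.4, 35 and 42 in SMA and 31.2, 28.4 and 30.3 in wild type. Transplanted SMA held both the lowest and the highest array, and the difference from SMA without the filter was -0.06 (SE 0.42, interval -0.98 to 0.87).

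Grn had the smallest difference from SMA among the 9 tested genes by the brightest probe set. That probe set read 1648.5, 1077.5 and 1850 in transplanted SMA, against 1956, 2122.9 and 1984.1 in SMA and 1215.6, 1439.4 and 1837.5 in wild type. All 3 SMA arrays lay above the 6 other arrays. The transplanted SMA minus SMA difference was -0.44 (SE 0.21, interval -0.91 to 0.04), with -0.51 (SE 0.35) and -0.70 (SE 0.33) at the other Grn probe sets.

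**Figure D1:**
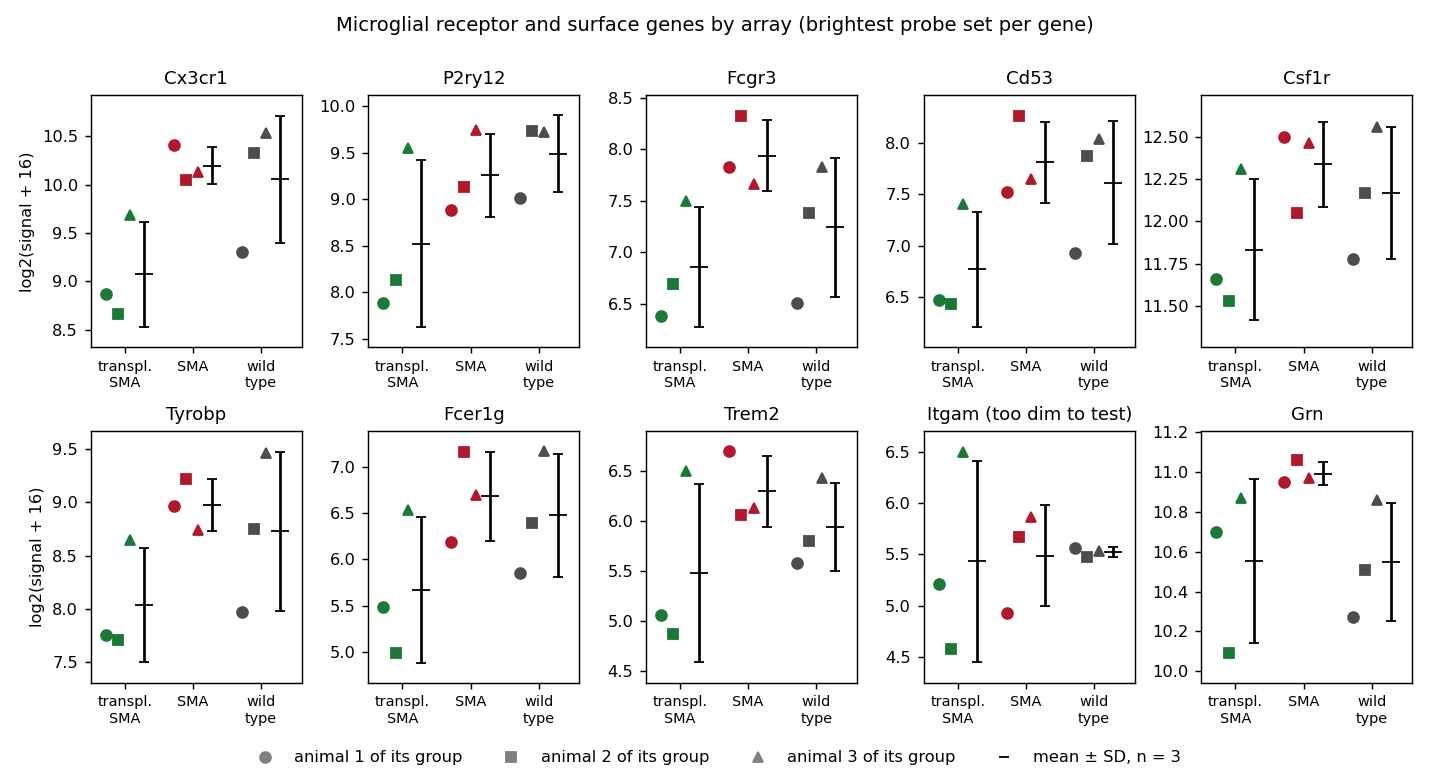
Level of each member gene on the 9 arrays, as log2(signal + 16) of its brightest probe set (vertical axis, a separate scale per gene), for transplanted SMA, SMA and wild type from left to right. Points are animals, and the black bar is the mean ± SD of 3. Transplanted SMA 1 and 2 and wild type 1 lie low for most genes, while for Itgam transplanted SMA 3 is highest and the wild-type arrays lie together.

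The members divided the arrays in much the same way. Transplanted SMA 2 was among the 3 lowest arrays for all 13 tested probe sets, and transplanted SMA 1 and wild type 1 for 12 each. Transplanted SMA 3 was among the 3 lowest for 0. The mean log2(signal + 16) over the brightest tested probe set of the 9 genes was 7.81, 7.68 and 8.78 in transplanted SMA, against 8.88, 9.04 and 8.91 in SMA and 8.13, 8.77 and 9.18 in wild type. The SMA arrays thus lay close together, while wild type and transplanted SMA each held arrays more than 1 unit apart.

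Across the 9 arrays, the 36 pairs of member genes had a median Pearson r of 0.805 (0.43 to 0.95) and a median Spearman rho of 0.705. With each group's mean removed the median r was 0.755 (0.54 to 0.97). Without transplanted SMA 1 and 2, the arrays farthest from the median of the member profile, it was 0.61 (-0.02 to 0.92). The highest r, 0.95, was that of Cd53 with Tyrobp and with Fcer1g, and Grn with P2ry12 had the lowest at 0.43. These correlations are descriptions over arrays that share a scaling and an amplification protocol. Probe sets of the same gene gave r of 0.85 to 0.91 for Csf1r, 0.89 to 0.94 for Grn and 0.69 for Cx3cr1.

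The probe sets most like the mean standardized profile of the 9 genes were ranked by Pearson r over the 9 arrays. Of the 8 highest, 6 named 1 gene. They were Htra2, a mitochondrial protease (r = 0.97, rho = 0.92), Slc37a2, a sugar phosphate transporter of macrophages (0.97, rho 0.95), Nckap1l, an actin regulator of blood cells (0.97, rho 0.83), the complement chains C1qc (0.95, rho 0.83) and C1qa (0.94, rho 0.77), and the nucleotide hydrolase Samhd1 (0.94, rho 0.87). Without transplanted SMA 1 and 2, r stayed between 0.77 for Samhd1 and 0.97 for Htra2 and Slc37a2. With group means removed, the named ones were Slc50a1, Sash3, Cd68, Tmem119, Htra2 and Ctsd (r of 0.97 or 0.98). Tmem119, a surface marker of microglia, followed the members within groups, yet it read 213.2, 180.7 and 406.4 in transplanted SMA, against 248.3, 231.1 and 252 in SMA and 226.6, 323.2 and 397.5 in wild type. Its transplanted SMA minus SMA difference was 0.04 (SE 0.28). Being picked for a high r, these probe sets get no p.

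Other genes of the same cells and pathways were counted in transplanted SMA minus SMA, from lists that were written with earlier results of these data known. Each gene entered by its brightest tested probe set, and 0 members of any of these lists passed the adjusted threshold. Of 31 other microglial genes, 27 had a negative difference (median -0.39). At an unadjusted p under 0.05, 6 of them were lower, against 2.46% of all tested probe sets. Fcrls, an Fc receptor-like molecule of microglia, gave -0.87 (SE 0.28), and P2ry6, a UDP receptor linked to phagocytosis, -0.98 (SE 0.31). The range over this list was -1.10 to 0.34, and Tmem119, Cd68 (-0.19, SE 0.40) and Aif1 (-0.08, SE 0.35) lay above its median. Genes raised in damage-associated microglia were negative in 10 of 12 (median -0.27). The 2 with the smallest p were lipoprotein lipase Lpl at -1.21 (SE 0.35) and the protease Ctsb at -0.45 (SE 0.19). Lpl was highest on SMA 1 and SMA 2, the arrays with muscle transcripts, at 228 and 466. It read 138.5 on SMA 3, 90 to 103.7 in transplanted SMA and 82.1 to 140 in wild type.

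The lists nearest to the members' own signalling had medians closer to 0. Of 12 kinases, adaptors, phosphatases and other signalling genes that act below Tyrobp and Fcer1g, 10 were negative with a median of -0.18. Of these 12, 0 had an unadjusted p under 0.05. Nckap1l gave -0.58 (SE 0.28) and the kinase Syk -0.41 (SE 0.29). Among 12 further Fc receptors, Tyrobp-linked receptors and tetraspanins, 5 were negative (median 0.02). Every tested tetraspanin of that list was on the positive side, and its negative genes were all receptors. Cd300lf, a lipid receptor of myeloid cells, gave -0.86 (SE 0.32), while the inhibitory Fc receptor Fcgr2b gave 0.53 (SE 0.21), with transplanted SMA higher on all 3 arrays than SMA.

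Ligands and binding partners of the members were negative in 7 of 10 (median -0.08). The progranulin receptor Sort1 was the 1 gene of that list with an unadjusted p under 0.05, at 0.40 (SE 0.18) on the higher side, where 2.32% of all tested probe sets lay. Clu, a lipoprotein that Trem2 can bind, gave 0.62 (SE 0.34). Fractalkine itself, Cx3cl1, read 60.4, 99.2 and 43.3 in transplanted SMA, against 90, 73.2 and 46.7 in SMA and 45.5, 49 and 58.7 in wild type, and these groups overlapped. Itgb2, the beta chain that pairs with Itgam, read 54.9, 44.9 and 151.7 in transplanted SMA, against 83.1, 176.4 and 106.9 in SMA and 40.9, 92.4 and 264.1 in wild type, also with overlap.

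Markers of other cells varied over the same arrays. Of 14 monocyte and neutrophil genes, 12 had a probe set and 9 were tested. Their summed signal was 672.3 to 2645.9 in transplanted SMA, 1113.9 to 8457.9 in SMA and 629.4 to 2168.3 in wild type. The top value was SMA 2, where S100a8 read 1690.5 against at most 428.8 elsewhere and the myeloperoxidase gene Mpo 1344.5 against at most 187.3. Cxcr2 was under 16 on every array and the monocyte receptor Ccr2 reached at most 19.7. In transplanted SMA minus SMA all 9 tested genes of that list were negative, with a median of -0.84 and 0 at an unadjusted p under 0.05. That rested on SMA 2: without it 5 of 9 were negative and the median was -0.01. The 9 tested member genes had a median of -0.94 with SMA 2 and -0.81 without it, with 9 of 9 negative both times.

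Genes of perivascular macrophages, with 10 of 10 on the array and 5 tested, summed to 382.3 to 542.9 in transplanted SMA, 374.2 to 971.8 in SMA and 370.5 to 474.2 in wild type. All 5 tested genes were negative in transplanted SMA minus SMA (median -0.31), but without SMA 2 only 2 of 5 were, with a median of 0.08. Their mannose receptor Mrc1 was highest on SMA 2 at 187.9, against 42.9 to 91.7 on the other arrays. Motor neuron genes, with 11 of 12 on the array, summed to 1527.3 to 3815 in transplanted SMA, 1259.2 to 2459.1 in SMA and 1896.9 to 2193.9 in wild type, with Slc5a7 under 16 on every array. They were highest on transplanted SMA 2, the array lowest in 9 of the 13 member probe sets. In transplanted SMA minus SMA, 5 of 6 tested motor neuron genes were positive (median 0.58), opposite in sign to the members. At an unadjusted limma p under 0.05, 2 of the 6 were higher, against 2.32% of all tested probe sets. They were Isl2 at 0.72 (SE 0.27) and the neurofilament gene Nefh at 1.02 (SE 0.40), each with a limma adjusted p of 0.933. Without transplanted SMA 2, 4 of 6 were positive (median 0.19).

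Lymphocyte genes had 8 of 10 on the array and 0 tested, and their sums were 115 to 162.8 in transplanted SMA, 70.5 to 127.8 in SMA and 64.2 to 132.7 in wild type, with Cd2 under 16 throughout. Oligodendrocyte genes were positive in 9 of 9 tested (median 0.45) and endothelial genes in 7 of 7 (median 0.63) in transplanted SMA minus SMA, also opposite in sign to the members. The oligodendrocyte median was 0.14 without SMA 1 and 0.10 without transplanted SMA 3, and the endothelial median was 0.36 without SMA 1, 0.37 without transplanted SMA 1 and 0.95 without SMA 3. Without both SMA 1 and SMA 2, which leaves 1 SMA array, these medians were -0.44 and -0.42. Oligodendrocyte sums were 29711.1 to 41782.8 in transplanted SMA, 21512.3 to 39506.6 in SMA and 28513.9 to 34112 in wild type. The 7 muscle genes summed to 82 to 112.9 in transplanted SMA, 82.2 to 2941.1 in SMA and 59.9 to 133.2 in wild type. Transcripts tied to sex also differed between arrays. The X-silencing RNA Xist read 733, 739.6 and 366.1 in transplanted SMA, against 600.7, 879.5 and 47.6 in SMA and 32.9, 23.5 and 31.7 in wild type. The Y-linked gene Eif2s3y read 0.4, 0.3 and 84.8 in transplanted SMA, against 0.5, 0.1 and 108.9 in SMA and 49, 54.7 and 75.1 in wild type. Kdm5d, also Y-linked, read 7.2, 4 and 29 in transplanted SMA, against 12.9, 1.1 and 40.6 in SMA and 51.4, 36 and 36.7 in wild type. Uty, Y-linked too but dim, read 11.5, 7.1 and 8.3 in transplanted SMA. It read 10.3, 10.2 and 20 in SMA, and 22.9, 18.8 and 20.8 in wild type. Transplanted SMA 3, the transplanted array highest in the members, thus read high for Xist, Eif2s3y and Kdm5d but not for Uty. Transplanted SMA 1 and 2 carried mainly Xist. Xist was high on all 3 transplanted arrays and on SMA 1 and SMA 2, and low on all 3 wild-type arrays. Xist level and group therefore cannot be told apart in transplanted SMA minus wild type. In SMA minus wild type only SMA 3, at 47.6, was near the wild-type arrays. The part of these cells and of sex in the member values was not tested.

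**Figure D2:**
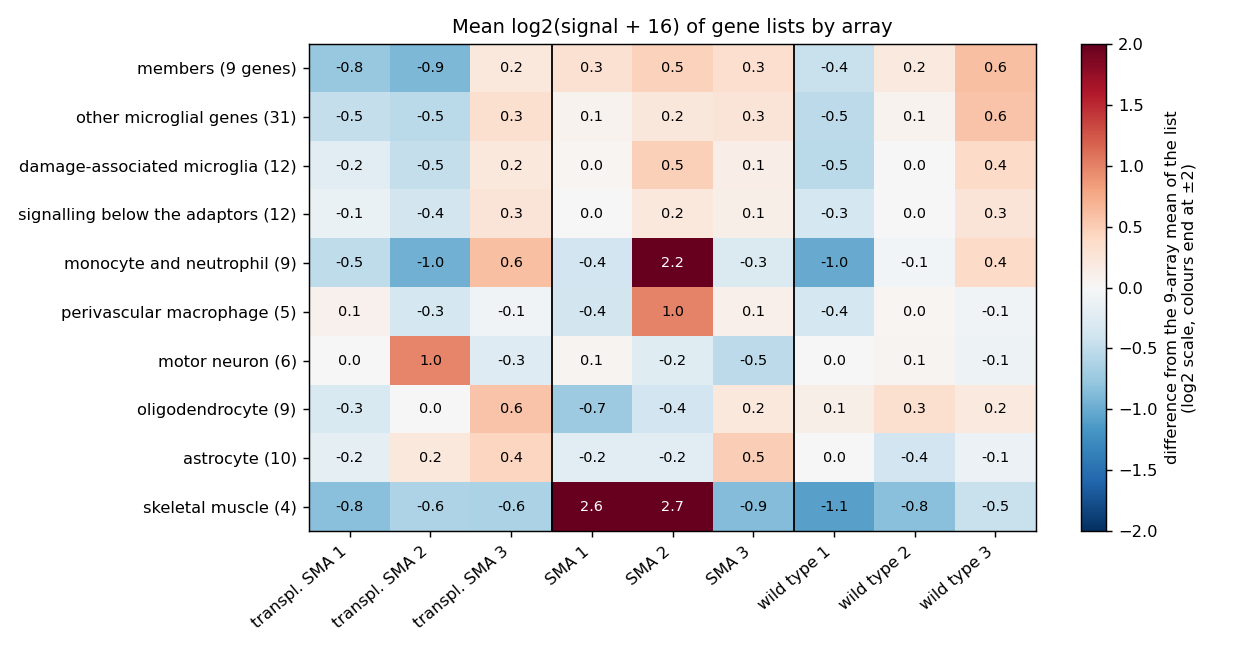
Mean log2(signal + 16) of gene lists (rows, with the number of tested genes) on each array (columns, transplanted SMA, SMA and wild type from left to right), as the difference from the mean of that list over 9 arrays. The members and the other microglial genes are low on transplanted SMA 1, transplanted SMA 2 and wild type 1, the monocyte and neutrophil list is highest on SMA 2 and, unlike the members, below its mean on SMA 1 and SMA 3, and the motor neuron list is highest on transplanted SMA 2.

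The size of the transplanted SMA minus SMA values varied with the animals included. Without transplanted SMA 3 the member median was -1.24 and all 13 probe sets were lower at an unadjusted p under 0.05, against 2.82% of all probe sets in that fit. With every array 6 were, as given above. Without transplanted SMA 1 the median was -0.61, with 2 of 13 at that level against 1.91% of all. Without transplanted SMA 2 it was -0.54, with 2 of 13 against 2.75%, and without SMA 2 it was -0.80, with 2 of 13 against 1.53%. Without wild type 3, which enters only the shared estimate of spread, the count was 9 against 2.45%. Leaving out SMA 1 and SMA 2 together, chosen after seeing the data, gave a median of -0.66. It leaves 1 SMA array, which is assumed to vary like the other groups, and in that fit 0 of 13 were lower at that level against 2.67% of all. Other microglial genes had a median of -0.64 and damage-associated genes of -0.54 without transplanted SMA 3, and the second was -0.17 without transplanted SMA 2. All 13 member differences were negative in each of these fits, and the adjusted p stayed above 0.05.

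Against wild type, transplanted SMA had negative differences for 11 of the 13 probe sets, and none passed the test. The median was -0.56 (range -0.98 to 0.07), where the median over all tested probe sets was -0.01 and 51.5% were negative. Of all probe sets, 0 passed (0% called), and the smallest adjusted p among the members was 0.698. At an unadjusted p under 0.05, 4 of the 13 were lower, against 3.28% of all. The arrays overlapped for all 13 members, while 7.04% of all probe sets had every transplanted animal below every wild-type one. This comparison shares the transplanted arrays with the one above and the wild-type arrays with the next, so the 3 sets of values are not independent.

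Cx3cr1 differed by -0.98 (SE 0.33, interval -1.72 to -0.25, adjusted p = 0.698) and P2ry12 by -0.97 (SE 0.40, interval -1.86 to -0.08, adjusted p = 0.739). For Cx3cr1, wild type 1 at 613.7 lay below transplanted SMA 3 at 807.3, and the other wild-type arrays lay above all transplanted ones. Cd53 gave -0.84 (SE 0.35) and Fcer1g -0.81 (SE 0.42), both with overlapping groups. Tyrobp gave -0.69 (SE 0.36), Trem2 -0.46 (SE 0.40), Fcgr3 -0.39 (SE 0.36) and Csf1r -0.34 to -0.76 at its 3 probe sets.

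Grn was apart from the other tested genes here. Its 3 probe sets gave 0.01 (SE 0.21, interval -0.46 to 0.48), 0.07 (SE 0.35, interval -0.69 to 0.84) and -0.11 (SE 0.33, interval -0.83 to 0.62), with signs that turn under other settings. The widest of these intervals reach down to -0.83 and up to 0.84. Without the filter, Itgam gave -0.09 (SE 0.42), the dim Trem2 probe set 0.18 (SE 0.25) and the dim Cx3cr1 probe set -0.57 (SE 0.24).

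The median of -0.56 was -0.88 without wild type 1 and -0.98 without transplanted SMA 3, but -0.32 without wild type 3 and -0.30 without transplanted SMA 2. The count at an unadjusted p under 0.05 was 4 with every array, 7 without wild type 1 (2.35% of all probe sets in that fit) and 9 without transplanted SMA 3 (3.62%). It was 1 without transplanted SMA 1 (2.38%). It was 0 without transplanted SMA 2 (3.06%), and also 0 when wild type 2 (2.06%) or wild type 3 (2.77%) was left out.

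Among the related lists, other microglial genes were negative in 24 of 31 against wild type (median -0.33), with P2ry6 at -0.78 (SE 0.31) and the chemokine Ccl4 at 0.74 (SE 0.22) as the 2 with the smallest p. Damage-associated genes were negative in 9 of 12 (median -0.11), with the protease inhibitor Timp2 at 0.62 (SE 0.25) and the receptor kinase Axl at 0.25 (SE 0.16) leading on the positive side. Signalling genes had a median of -0.02, with the adaptors Dok1 at 0.48 (SE 0.18) and Grb2 at -0.32 (SE 0.18). Further Fc receptors and tetraspanins had -0.04, with Fcgr2b at 0.48 (SE 0.21) and the tetraspanin Cd151 at 0.71 (SE 0.44). Ligands and partners had 0.19, with Clu at 0.57 (SE 0.34) and Csf1, a ligand of Csf1r, at -0.24 (SE 0.18). None of these genes passed the adjusted threshold.

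**Figure D3:**
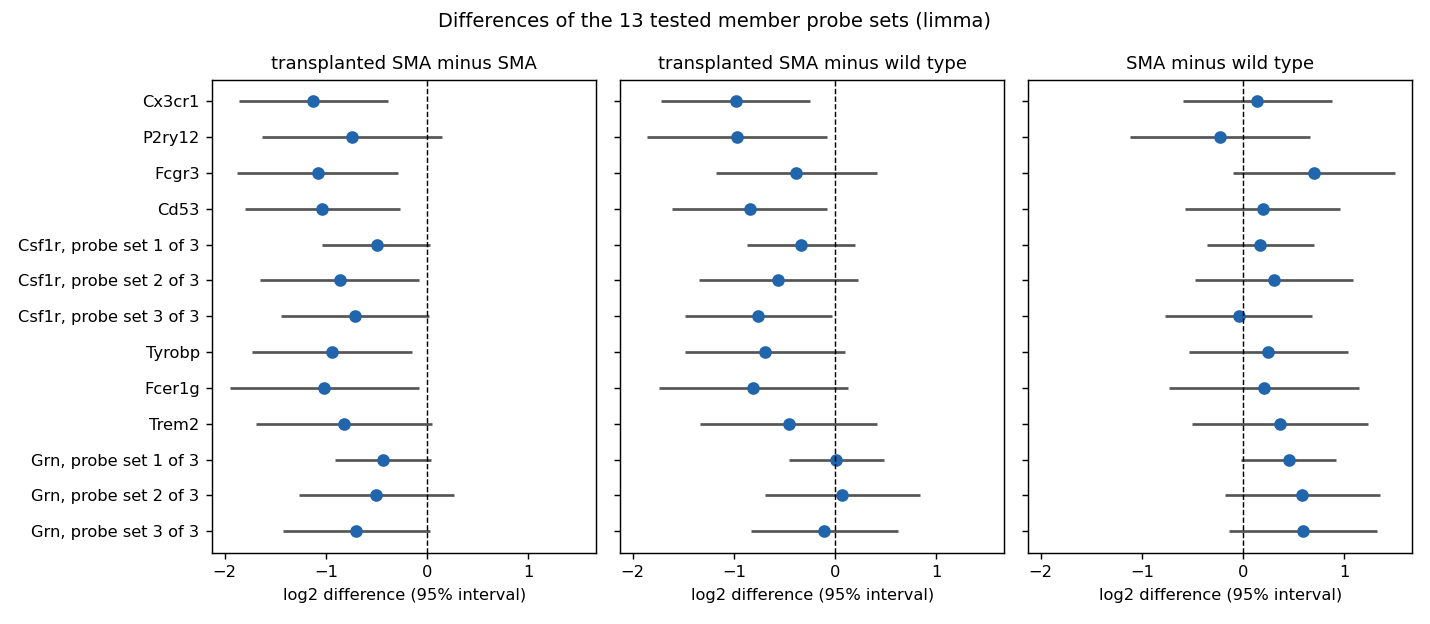
Log2 difference with 95% interval from limma (horizontal axis) for the 13 tested member probe sets (rows, probe sets of a gene from bright to dim), in transplanted SMA minus SMA, transplanted SMA minus wild type and SMA minus wild type from left to right. All 13 points are negative in the left panel, 11 in the middle one and 2 in the right one, and no probe set passed after adjustment.

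SMA against wild type showed no member past the test, and most differences were small beside their errors. Of 13 probe sets, 11 were positive (51% of all tested probe sets were), with a median of 0.25 and a range of -0.23 to 0.70, where the median of all was 0.01. Over all probe sets 5 passed (0.0442% called), with 0 members among them and a smallest member adjusted p of 0.842. At an unadjusted p under 0.05, 0 members were higher, against 2.71% of all. The brightest Grn probe set was the 1 member whose groups did not overlap with SMA higher, against 5.31% of all.

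Fcgr3 gave the most positive difference at 0.70 (SE 0.36, interval -0.1 to 1.5, adjusted p = 0.861). Grn followed with 0.45 (SE 0.21, interval -0.02 to 0.92), 0.58 (SE 0.35) and 0.59 (SE 0.33) at its 3 probe sets. Trem2 gave 0.36 (SE 0.40), Tyrobp 0.25 (SE 0.36), Fcer1g 0.21 (SE 0.42), Cd53 0.20 (SE 0.35) and Cx3cr1 0.14 (SE 0.33). P2ry12 was on the negative side at -0.23 (SE 0.40, interval -1.12 to 0.66), and Csf1r gave 0.17, 0.30 and -0.04. Itgam gave -0.04 (SE 0.42) and the dim Trem2 probe set 0.42 (SE 0.25) without the filter.

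The sign of this comparison rested on wild type 1. Without that array the member median was -0.03 and 8 of 13 differences were negative, while without wild type 3 the median was 0.56 and 3 of 13 were higher at an unadjusted p under 0.05, against 2.99% of all. The related lists had medians of 0.15 for other microglial genes (23 of 31 positive), 0.24 for damage-associated genes (10 of 12), 0.17 for signalling genes (10 of 12), 0.12 for further Fc receptors and tetraspanins (8 of 12) and 0.22 for ligands and partners (8 of 10). The genes with the smallest p in each were Plek (0.61, SE 0.26) and C1qb (0.72, SE 0.38), Timp2 (0.83, SE 0.25) and Lpl (1.04, SE 0.35), Dok1 (0.38, SE 0.18) and the kinase Fgr (0.32, SE 0.18), Cd82 (-0.62, SE 0.27) and Cd300lf (0.52, SE 0.32), and Psap (0.28, SE 0.16) and Apoe (0.29, SE 0.18). None passed the adjusted threshold.

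**Figure D4:**
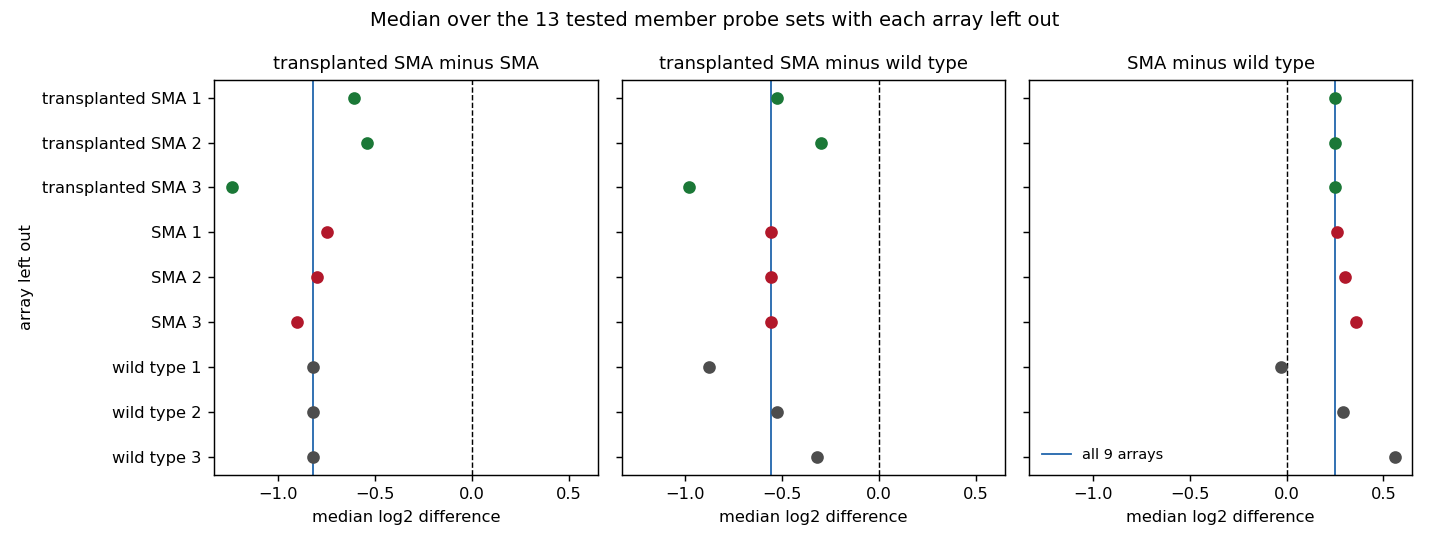
Median log2 difference over the 13 tested member probe sets (horizontal axis) when each array named on the vertical axis is left out, for transplanted SMA minus SMA, transplanted SMA minus wild type and SMA minus wild type from left to right. The blue line is the median with all 9 arrays. The medians stay negative in the left and middle panels, and in the right panel leaving out wild type 1 gives -0.03.

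By group means on the log2(signal + 16) scale, transplanted SMA was lowest, wild type in the middle and SMA highest for 7 of the 9 tested genes. P2ry12 had wild type above SMA, and Grn averaged 10.55 ± 0.41 in transplanted SMA and 10.54 ± 0.30 in wild type (SD, n = 3 each). No neighbouring pair of groups in these orders differed past the adjusted threshold for any of the 9 genes.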

How the data were processed

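RNA of laser-cut motor neurons was amplified in 2 rounds and hybridised to 1 array per mouse, per the labels' protocols. Linear intensities were deposited, made by the authors with MAS5, per the submitters' processing notes. Its version is not stated there. The trimmed mean (2% left out at both ends) came to 100 for each array, and this scaling was kept. Of 22690 probe sets, 64 controls were left out. Of the rest, 20380 named 1 gene, 691 several and 1555 none in the platform annotation.

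Log2(signal + 16) was fitted with limma 3.58.1 in R 4.3.3 (eBayes with trend) over all 9 arrays, for the 11313 brighter probe sets of 7254 genes, with a mean per group and two-sided tests. The code was tested on simulated data. Groups and sample numbers came from the sample titles, and 0 pairs of arrays held identical values. The number of arrays limits the precision.

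The members and lists were chosen with earlier results of these data known. Named besides the members were the 2 genes of each related list with the smallest p per comparison, the 8 probe sets most like the members in each of both rankings (unnamed ones left out), and Acta1, Nefl, Mrc1 and Xist. Aif1, Ccr2, Cd2, Cx3cl1, Cxcr2, Eif2s3y, Isl1, Isl2, Itgb2, Kdm5d, Mpo, Nefh, S100a8, Slc18a3, Slc5a7 and Uty were named after their values were seen. Alternatives were other pseudocounts, filters, normalisations and moderation, array weights, the 6 arrays of a comparison alone, a replicate block, dropping probe sets whose probes match several transcripts, and leaving out arrays.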

Additional observations from a re-analysis of the deposited data

How the results depend on the processing

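No member probe set passed the adjusted threshold in any of 22 other settings per comparison, where the smallest member adjusted p was 0.258. Over the 9 fits that leave out 1 array, the member median ranged from -1.24 to -0.54 in transplanted SMA minus SMA, -0.98 to -0.30 in transplanted SMA minus wild type and -0.03 to 0.56 in SMA minus wild type. Over the 13 other settings it ranged from -1.02 to -0.63, -0.72 to -0.46 and 0.19 to 0.45. Of members lower at an unadjusted p under 0.05 in transplanted SMA minus SMA, there were 6 as reported (2.46% of all probe sets), 9 with median centring (2.83%) and 10 with array weights (3.88%).

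The main fit did not take the sample numbers, known only from the titles, to pair arrays. Same-numbered arrays did deviate together (r over 0.1) in 6 of 9 pairs (-0.08 to 0.45). Differently numbered pairs ranged from -0.47 to 0.33. Each array deviated most like its own number, among the 3 arrays of another group, in 11 of 18 checks. Whether same-numbered arrays shared a processing step was not tested. With the number as a replicate block the medians were -0.82, -0.56 and 0.25, with 12, 6 and 0 of 13 lower at that level (3.78%, 4.31% and 4.17% of all), against 6, 4 and 0 without it (2.46%, 3.28% and 3.32%), and 2 higher in SMA minus wild type (3.51%).

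Signs turned for some values near 0, and the cause was not tested. In SMA minus wild type, leaving out 1 array gave -0.23 to 0.38 for Cx3cr1, -0.15 to 0.41 for Cd53, -0.13 to 0.62 for Tyrobp and -0.10 to 0.56 for Fcer1g. The 3 Csf1r probe sets gave -0.03 to 0.36, -0.02 to 0.54 and -0.40 to 0.18, and the last was 0.08 with array weights. P2ry12 was 0.26 without SMA 1 and SMA 2, a setting chosen after seeing the data. In transplanted SMA minus wild type, leaving out 1 array gave -0.15 to 0.24, -0.28 to 0.34 and -0.47 to 0.15 for the 3 Grn probe sets. With median centring the first was -0.07 and the second -0.01, and with array weights the first was -0.02.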
